A study of Mus musculus with 18 samples.

Results

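A set of 10 regulators of germ cell identity was followed by RNA-seq in whole mouse embryos at E11.5, and the genes were chosen by symbol with earlier results of the same embryos known. The 10 genes, out of 34244 named genes in the expression table, were kept in 2 classes, with Dazl, Sohlh1 and Sohlh2 as 3 late germline genes and Dppa3, Dnd1, Nanos3, Prdm1, Prdm14, Tfap2c and Kit as 7 primordial germ cell genes. The embryos were on the FVB background and comprised 3 Dnmt3b+/+ embryos, 3 Dnmt3b-/- embryos with both copies of the DNA methyltransferase gene inactivated, and 3 Dnmt3bCI/CI embryos in which both copies carry a knock-in allele of Dnmt3b without catalytic activity. The null allele was a conventional knockout made from a floxed allele, and the CI allele was introduced in fertilized eggs, so both were constitutive and not limited to a tissue. No agent was given, parents were naturally mated Dnmt3b+/- and Dnmt3b+/CI mice, only live embryos were kept, offspring of different CI founders were not told apart, and 1 library was made per embryo. Bisulfite sequencing of the embryos and of lymphoma lines belongs to the same series and was not analysed here.

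Primordial germ cells are set aside at the posterior end of the early embryo under the control of Prdm1, Prdm14 and Tfap2c, migrate while they depend on Kit, Nanos3 and Dnd1, and reach the genital ridges at about the stage sampled here. Dazl and the Sohlh factors act later, once germ cells have entered the gonad and proceed towards oogenesis or spermatogenesis. The promoters of several late germline genes are known to be methylated in somatic cells of the embryo after implantation and to lose methylation in germ cells as these colonize the gonad, and Dnmt3b is one of the enzymes that place such methylation.

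Levels are given as FPKM, reads on a gene divided by its exon length and by the total of the library. This accounts for gene length and library total only, and the share of higher calls over all genes moved with the scaling. The totals behind the normalization ranged from 38451738 to 49808788 reads per library, which places 3 reads, taken as the limit of detection in a library, at a small fraction of 1 FPKM for every member. Genotypes were compared with limma, a linear model with a moderated variance, on log2(FPKM + 0.1) over 19397 genes above a low filter, and a gene that is no member was called where its p, adjusted over all these genes, was under 0.05 and its change at least 2-fold. Embryos differed in ways that genotype does not cover. Xist, the RNA of the inactive X chromosome, stood at 63.2 FPKM in Dnmt3b+/+ embryo 1 and 45.3 FPKM in Dnmt3bCI/CI embryo 3 and at no more than 0.0661 FPKM in the other 7, which carried 3.77 to 5.06 FPKM of the Y-linked Ddx3y. All 3 embryos labelled Dnmt3b-/- belonged to the latter kind. Dnmt3b itself, summed over the whole gene, measured 2.25, 1.62 and 2.04 FPKM in Dnmt3b+/+, 2.06, 1.98 and 2.32 FPKM in Dnmt3bCI/CI and 2.45, 3.12 and 3.33 FPKM in the libraries labelled Dnmt3b-/-. It was thus not lower in the last group (log2 difference 0.57, limma adjusted p = 0.0248, under 2-fold), so the transcript level does not check the null label, and the genotype is used here as labelled throughout.

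The most marked values among the members belonged to Dazl and Sohlh2 in the embryos labelled Dnmt3b-/-. Their promoters are shown with that of Sohlh1, the third late germline gene, because the 2 genes that were high and the 1 that stayed undetected can then be set side by side. Each window runs 5′ to 3′ on the strand of the gene, from 250 bases before to 50 bases after the transcription start (RefSeq, GRCm38.p6), with every CG dinucleotide, the site of methylation, in capitals, and with each CACGTG, whose middle is itself a CG, in capitals as well. The windows lie at chr17:50293571-50293870 on the minus strand for Dazl, chr3:55181794-55182093 on the plus strand for Sohlh2 and chr2:25847199-25847498 on the minus strand for Sohlh1.
Dazl: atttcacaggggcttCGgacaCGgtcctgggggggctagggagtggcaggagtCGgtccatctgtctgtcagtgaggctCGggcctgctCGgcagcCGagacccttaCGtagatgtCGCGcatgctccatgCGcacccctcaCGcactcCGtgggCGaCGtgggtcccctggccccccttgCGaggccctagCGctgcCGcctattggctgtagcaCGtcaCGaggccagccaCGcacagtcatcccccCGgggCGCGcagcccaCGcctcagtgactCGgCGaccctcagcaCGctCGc
Sohlh2: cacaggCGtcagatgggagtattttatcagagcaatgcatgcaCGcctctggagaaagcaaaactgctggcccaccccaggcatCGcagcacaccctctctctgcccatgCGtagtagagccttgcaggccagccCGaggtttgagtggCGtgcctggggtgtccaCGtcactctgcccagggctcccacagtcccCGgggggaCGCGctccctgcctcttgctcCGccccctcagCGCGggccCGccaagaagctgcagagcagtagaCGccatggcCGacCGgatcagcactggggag
Sohlh1: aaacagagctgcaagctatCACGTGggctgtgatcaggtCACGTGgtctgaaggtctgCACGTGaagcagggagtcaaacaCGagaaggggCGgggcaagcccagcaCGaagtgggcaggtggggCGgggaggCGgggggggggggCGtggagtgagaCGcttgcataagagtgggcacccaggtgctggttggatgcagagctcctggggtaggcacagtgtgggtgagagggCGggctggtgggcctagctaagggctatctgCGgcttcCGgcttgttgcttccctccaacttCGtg

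The Dazl window held 28 CG dinucleotides, more than 85.8% of the 32851 windows in the same table, whose median was 7. The Sohlh2 window held 17 CG, above 68.6% of windows, and the Sohlh1 window 14, above 63.7%. CG number therefore placed all 3 promoters above the median but did not set Sohlh1 far apart from Sohlh2. The letters CACGTG, an E-box read the same on both strands, occurred 3 times in the Sohlh1 window, the first at position -231 from the start, and not in the windows of Dazl and Sohlh2. They occur in 7.15% of all windows. Among primordial germ cell genes, Nanos3 had 3 CG (above 23.3% of windows), Prdm1 had 20, and Kit had 20 and 21 in its 2 windows, none with CACGTG. Dppa3, Dnd1, Prdm14 and Tfap2c were not matched to a window. Methylation of these windows was not measured here.

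Dazl encodes an RNA-binding protein that promotes translation in germ cells and licenses them for gametogenesis. The gene (ENSMUSG00000010592) lies on chromosome 17 at 50279395 to 50293636, minus strand, in mm10. Its level was 0.152, 0.00682 and 0.0953 FPKM in Dnmt3b+/+ embryos 1, 2 and 3, which rests on 20, 1 and 11 reads. In the embryos labelled Dnmt3b-/- it was 2.85, 2.74 and 2.56 FPKM, from 334, 343 and 305 reads. Dnmt3bCI/CI embryos had 0.167, 0.133 and 0.124 FPKM, from 22, 17 and 14 reads. Every Dnmt3b-/- value was above every value of the other 2 groups, whereas the Dnmt3bCI/CI and Dnmt3b+/+ values overlapped. The mean was 0.0848 ± 0.0733 FPKM (SD, n = 3) in Dnmt3b+/+, 2.72 ± 0.147 FPKM in Dnmt3b-/- and 0.141 ± 0.0224 FPKM in Dnmt3bCI/CI. The ratio of Dnmt3b-/- over Dnmt3b+/+ was 32.0, but 53.2 without Dnmt3b+/+ embryo 1 and 21.9 without embryo 2. On the scale of log2(FPKM + 0.1), the difference from Dnmt3b+/+ was 4.02 ± 0.27 (SE) for Dnmt3b-/- and 0.47 ± 0.27 for Dnmt3bCI/CI. The 1 read in Dnmt3b+/+ embryo 2 lowers the control mean, and without that embryo the differences were 3.66 and 0.12. As the members were chosen with these contrasts known, their differences are given as a description with no test.

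Sohlh2, a basic helix-loop-helix transcription factor of early spermatogonia and of oocytes in primordial follicles, had the same shape over genotypes at a lower level. The gene (ENSMUSG00000027794) is on chromosome 3 at 55182028 to 55209957, plus strand. Dnmt3b+/+ embryos had 0.0568, 0.00849 and 0.0108 FPKM, from 6, 1 and 1 reads. The embryos labelled Dnmt3b-/- had 0.902, 0.955 and 0.866 FPKM, from 85, 96 and 83 reads. Dnmt3bCI/CI embryos had 0.0377, 0.00977 and 0.011 FPKM, from 4, 1 and 1 reads. In 4 of the 6 embryos outside the Dnmt3b-/- group the gene rested on 1 read, and Dnmt3b+/+ and Dnmt3bCI/CI overlapped. The mean was 0.0254 ± 0.0273 FPKM in Dnmt3b+/+, 0.908 ± 0.045 FPKM in Dnmt3b-/- and 0.0195 ± 0.0158 FPKM in Dnmt3bCI/CI. The ratio of Dnmt3b-/- over Dnmt3b+/+ was 35.8, but 94.2 without Dnmt3b+/+ embryo 1, which held 6 of the control reads. Differences in log2(FPKM + 0.1) from Dnmt3b+/+ were 3.03 ± 0.17 for Dnmt3b-/- and -0.06 ± 0.17 for Dnmt3bCI/CI. The gene passed the filter on low values only through the Dnmt3b-/- embryos, so it had to differ once it was tested. With a pseudocount of 1 FPKM in place of 0.1 its difference fell to 0.90, below the fold threshold of 2.

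Sohlh1, the partner of Sohlh2 in both germ lines, was not detected. The gene (ENSMUSG00000059625, chromosome 2, 25842995 to 25847248, minus strand) had 0 reads in 8 embryos and 1 read in Dnmt3bCI/CI embryo 3. A count of 0 allows up to 3 reads in a library, so a low level cannot be told from none. The 3 late germline genes thus did not behave as a class, with 2 of 3 high in the embryos labelled Dnmt3b-/- and the other at the floor in every genotype.

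**Figure D1:**
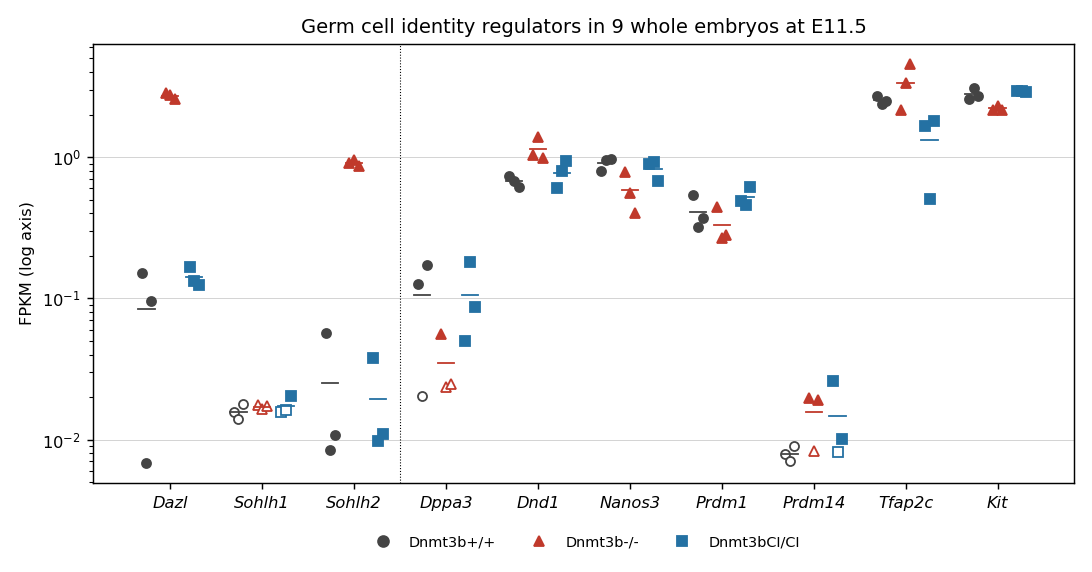
FPKM (log axis) of the 10 members in each of the 9 embryos, with Dnmt3b+/+ as grey circles, Dnmt3b-/- as red triangles and Dnmt3bCI/CI as blue squares; bars are group means, open symbols are embryos with 0 reads, drawn at the value the table gives for no reads, and the dotted line separates late germline genes (left) from primordial germ cell genes. Dazl at 2.56 to 2.85 FPKM and Sohlh2 at 0.866 to 0.955 FPKM in Dnmt3b-/- stand clear of the other 6 embryos, while Sohlh1 and Prdm14 stay at the bottom in all groups.

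The primordial germ cell genes showed no common direction. Prdm1 and Prdm14 encode the zinc finger regulators that specify germ cells, the former best known as Blimp1. Prdm1 (ENSMUSG00000038151, chromosome 10, 44437177 to 44528501, minus strand) had 0.538, 0.32 and 0.37 FPKM in Dnmt3b+/+, 0.44, 0.266 and 0.283 FPKM in Dnmt3b-/- and 0.491, 0.455 and 0.615 FPKM in Dnmt3bCI/CI, from 63 to 134 reads. Both mutant groups overlapped with Dnmt3b+/+, while all Dnmt3b-/- values lay below all Dnmt3bCI/CI values, with log2 differences from Dnmt3b+/+ of -0.25 ± 0.21 in Dnmt3b-/- and 0.30 ± 0.21 in Dnmt3bCI/CI. Prdm14 (ENSMUSG00000042414, chromosome 1, 13113457 to 13127163, minus strand) had 0 reads in all Dnmt3b+/+ embryos, 2, 0 and 2 reads in Dnmt3b-/- and 3, 0 and 1 reads in Dnmt3bCI/CI. It was at or below the limit of detection in all 9 embryos and was not tested, so no fold is given.

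Tfap2c, an AP-2 factor that acts beside Prdm1 in germ cell specification and is also active in surface ectoderm, varied widely between embryos of 1 genotype. The gene (ENSMUSG00000028640, chromosome 2, 172549593 to 172558622, plus strand) measured 2.71, 2.36 and 2.49 FPKM in Dnmt3b+/+, 2.15, 3.34 and 4.57 FPKM in Dnmt3b-/- and 1.66, 0.502 and 1.81 FPKM in Dnmt3bCI/CI. Dnmt3bCI/CI values lay below those of both other groups, with embryo 2 lowest at 80 reads against 256 to 681 in the other 8. The log2 difference from Dnmt3b+/+ was 0.34 ± 0.43 in Dnmt3b-/- and -1.05 ± 0.43 in Dnmt3bCI/CI, and Dnmt3b-/- stood 1.39 ± 0.43 above Dnmt3bCI/CI. Without Dnmt3bCI/CI embryo 2 the last 2 differences were -0.51 and 0.85. Its paralogs Tfap2a and Tfap2b, which are expressed in ectoderm and neural crest, were among 5 tested relatives of the members, of which 0 were called by limma in any comparison and 0 had an unadjusted p under 0.05. In Dnmt3bCI/CI embryo 2 Tfap2a and Tfap2b stood at 2.88 and 6.34 FPKM, between 2.44 and 5.99 FPKM in embryo 1 and 2.89 and 6.73 FPKM in embryo 3.

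Dnd1 encodes an RNA-binding protein that germ cells need to survive. The gene (ENSMUSG00000044595, chromosome 18, 36763671 to 36766214, minus strand) had 0.734, 0.674 and 0.613 FPKM in Dnmt3b+/+, 1.03, 1.38 and 0.992 FPKM in Dnmt3b-/- and 0.6, 0.795 and 0.938 FPKM in Dnmt3bCI/CI. Dnmt3b-/- embryos were above both other groups, by a mean ratio of 1.69 over Dnmt3b+/+ (log2 difference 0.66 ± 0.18). Dnmt3bCI/CI overlapped with Dnmt3b+/+ (0.17 ± 0.18). Of its 2412 exon bases, 140 are shared with Wdr55 on the opposite strand, and reads of the 2 genes cannot be told apart there because strand use in the counting is not given in the sources used here.

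Nanos3 encodes the RNA-binding repressor that keeps migrating germ cells alive, and it went the other way. The gene (ENSMUSG00000056155, chromosome 8, 84173731 to 84185217, minus strand) had 0.8, 0.956 and 0.966 FPKM in Dnmt3b+/+, 0.787, 0.56 and 0.4 FPKM in Dnmt3b-/- and 0.892, 0.925 and 0.675 FPKM in Dnmt3bCI/CI, from 15 to 44 reads. Dnmt3b-/- values lay below all Dnmt3b+/+ values, though embryo 1 by 0.787 against 0.8 FPKM, with a log2 difference of -0.60 ± 0.21. Dnmt3bCI/CI overlapped with both (-0.12 ± 0.21 from Dnmt3b+/+). Among its relatives, Nanos1, expressed mainly in the nervous system, was at 0.798 to 2.60 FPKM and Nanos2, which acts in male germ cells, had 1 to 14 reads per embryo. Nanos1 was not called (log2 difference -0.61 ± 0.29 in Dnmt3b-/-, adjusted p = 0.157) while Nanos2 was not tested.

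Kit, the receptor tyrosine kinase that carries the Kit ligand signal in germ cells, melanoblasts and blood progenitors, was the highest member in Dnmt3b+/+. The gene (ENSMUSG00000005672, chromosome 5, 75574916 to 75656722, plus strand) measured 2.59, 3.07 and 2.73 FPKM in Dnmt3b+/+, 2.17, 2.32 and 2.15 FPKM in Dnmt3b-/- and 2.96, 2.94 and 2.91 FPKM in Dnmt3bCI/CI. Dnmt3b-/- embryos were below all others by a small margin, with a mean ratio of 0.791 (log2 difference -0.32 ± 0.08), and Dnmt3bCI/CI differed from Dnmt3b+/+ by 0.07 ± 0.08. Its ligand Kitl had means of 2.16 ± 0.39, 1.59 ± 0.164 and 2.04 ± 0.274 FPKM in Dnmt3b+/+, Dnmt3b-/- and Dnmt3bCI/CI (log2 difference for Dnmt3b-/- -0.41 ± 0.15, limma adjusted p = 0.0804). Markers of cells that carry Kit outside the germ line were measured beside it. The summed level of 8 melanoblast markers was 20.6 to 24.2 FPKM in Dnmt3b+/+, 13.2 to 21.7 FPKM in Dnmt3b-/- and 24.9 to 29.1 FPKM in Dnmt3bCI/CI, and that of 9 blood progenitor markers was 13.2 to 22.3, 14.7 to 19.2 and 17.8 to 21.0 FPKM. Of the 7 melanoblast markers above the filter, Mlana had 1 to 3 reads in Dnmt3b+/+ and 12 to 19 in Dnmt3b-/- (log2 difference 2.01 ± 0.25). It was under 0.1 FPKM in every Dnmt3b+/+ embryo and passed the filter only through the mutant groups, so this difference is given without a test. Sox10 fell in Dnmt3b-/- against Dnmt3bCI/CI (-1.17 ± 0.31, adjusted p = 0.0256), beside 4.32% called lower. None of 8 blood markers was called by limma (0 of 8, with 3 at an unadjusted p under 0.05 in Dnmt3b-/- against Dnmt3b+/+). The most different of them, the progenitor factor Runx1, was at 0.528 times its Dnmt3b+/+ mean without overlap (-0.77 ± 0.15, adjusted p = 0.0089), under 2-fold on the log2 scale. Cd34 was lower (-0.20 ± 0.07, limma adjusted p = 0.0811) and Gata2 higher (0.35 ± 0.12, limma adjusted p = 0.0642), both without overlap. The median log2 difference of the 8 was 0.01 beside -0.07 over all genes. The melanoblast sum consisted mostly of Sox10 and Ednrb, also markers of other neural crest cells, which were lowest in Dnmt3b-/- embryos 2 and 3 (4.99 and 3.46 FPKM for Sox10). The pigment genes Dct and Pmel were higher in those embryos than in Dnmt3b-/- embryo 1, Dct at 0.957 and 1.18 against 0.577 FPKM and Pmel at 1.93 and 2.67 against 1.18 FPKM. The part of these cells in the Kit values was not tested, and in whole embryos fewer cells of a type and less RNA per cell cannot be told apart.

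Dppa3, also known as Stella, is the member most restricted to germ cells at this stage, where it protects the genome during methylation reprogramming. The gene (ENSMUSG00000046323) lies on chromosome 6 at 122626410 to 122630272, plus strand. It had 5, 0 and 6 reads in Dnmt3b+/+ (0.126, 0.0203 and 0.171 FPKM, the middle value being the one the table gives to no reads), 2, 0 and 0 reads in Dnmt3b-/- and 2, 7 and 3 reads in Dnmt3bCI/CI. All groups overlapped, and the log2 differences were -0.54 ± 0.33 in Dnmt3b-/- and 0.03 ± 0.33 in Dnmt3bCI/CI. With so few reads a difference of this size is not detectable at this depth.

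**Figure D2:**
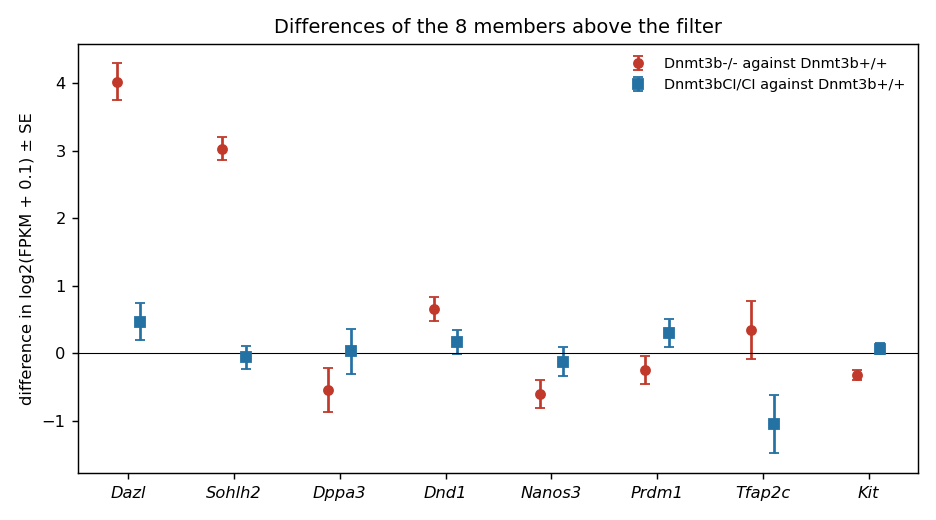
Difference from Dnmt3b+/+ in log2(FPKM + 0.1), with standard errors, of the 8 members above the filter, as red circles for Dnmt3b-/- and blue squares for Dnmt3bCI/CI; both comparisons use the same 3 Dnmt3b+/+ embryos. Dazl at 4.02 and Sohlh2 at 3.03 in Dnmt3b-/- lie far from the other members, whose differences run from -0.60 to 0.66 in Dnmt3b-/-.

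Of the 10 members, 8 were above the filter of 0.1 FPKM in at least 3 embryos. Of these 8, the 2 genes Dazl and Sohlh2 were past an adjusted p of 0.05 and a 2-fold higher level in Dnmt3b-/- over Dnmt3b+/+, beside 1.07% of the 19397 genes tested, and 0 were past it on the lower side, beside 3.38%. In Dnmt3bCI/CI against Dnmt3b+/+, 0 of 8 were past the threshold in either direction, beside 0.129% and 0.00% of genes. Against Dnmt3bCI/CI, Dnmt3b-/- had 3 members past it on the higher side (Dazl at 3.55 ± 0.27, Sohlh2 at 3.08 ± 0.17 and Tfap2c) beside 1.10%, and 0 on the lower side beside 4.32%. Tfap2c was past it in only 7 of 19 alternative settings of the processing. Nothing is read from these counts, since the same contrasts were known when the members were chosen. The median difference over the 8 members was 0.05 in each of the 3 comparisons, and over all genes it was -0.07, 0.02 and -0.08 in the same order. Groups of 3 that did not overlap were seen for 3 members on the higher side (Dazl, Sohlh2 and Dnd1) and 2 on the lower side (Nanos3 and Kit) in Dnmt3b-/- against Dnmt3b+/+, beside 15.1% and 23.8% of all genes. In Dnmt3bCI/CI against Dnmt3b+/+ it was 0 higher and 1 lower, Tfap2c, beside 7.53% and 5.65%. In Dnmt3b-/- against Dnmt3bCI/CI it was 4 higher (Dazl, Sohlh2, Dnd1 and Tfap2c) and 2 lower (Prdm1 and Kit), beside 16.7% and 29.5%.

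Ranked by mean FPKM in Dnmt3b+/+, the members ran Kit, Tfap2c, Nanos3, Dnd1, Prdm1, Dppa3, Dazl and Sohlh2, with Sohlh1 and Prdm14 at the limit of detection and not ranked in any genotype. Kit and Tfap2c overlapped between embryos, Nanos3, Dnd1 and Prdm1 did not overlap with each other, and Dppa3, Dazl and Sohlh2 overlapped and could not be ordered. In the embryos labelled Dnmt3b-/- the order was Tfap2c, Dazl, Kit, Dnd1, Sohlh2, Nanos3, Prdm1 and Dppa3. Dazl thus moved from below every well detected primordial germ cell gene to a level above Kit, 2.56 to 2.85 against 2.15 to 2.32 FPKM, and overlapped with Tfap2c. Sohlh2 came to lie between Dnd1 and Nanos3 without overlap with either. In Dnmt3bCI/CI the order from the top was Kit, Tfap2c, Nanos3, Dnd1, Prdm1, Dazl and Dppa3. There Tfap2c overlapped with Nanos3, Nanos3 with Dnd1, Dnd1 with Prdm1, and Dazl with Dppa3.

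Beside the late members, 25 other late germline regulators were listed, of which 24 were in the table and 17 above the filter. In Dnmt3b-/- against Dnmt3b+/+ 3 of the 17 were past both thresholds on the higher side, 0 on the lower side and 14 on neither, with a median log2 difference of 0.35 beside -0.07 over all genes. The 3 were Taf7l, Ddx4 and Meioc. By adjusted p alone 7 were higher and 0 lower. In Dnmt3bCI/CI against Dnmt3b+/+ the count was again 3 higher and 0 lower, and it comprised Taf7l, Ddx4 and Meioc too. These counts stand beside 1.07% and 0.129% of all genes called higher, and both comparisons share the Dnmt3b+/+ embryos. Taf7l and Ddx4 were under 0.1 FPKM in every Dnmt3b+/+ embryo and passed the filter only through the mutant groups, so they had to differ once tested, and nothing is read from the counts or the median.

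Ddx4, the germ cell RNA helicase also called Vasa, had 0.0966, 0.0266 and 0.0677 FPKM in Dnmt3b+/+ (13, 4 and 8 reads). It had 1.78, 1.94 and 1.87 FPKM in Dnmt3b-/- (214, 249 and 228 reads) and 0.599, 0.667 and 0.44 FPKM in Dnmt3bCI/CI (81, 87 and 51 reads). The 3 groups were fully separated, with Dnmt3bCI/CI in between. Its log2 difference from Dnmt3b+/+ was 3.61 ± 0.19 in Dnmt3b-/- and 2.04 ± 0.19 in Dnmt3bCI/CI, both given without a test because of the filter. Dnmt3b-/- exceeded Dnmt3bCI/CI, where every embryo was above the filter level, by 1.57 ± 0.19 (limma adjusted p = 0.00123), a call that was lost with a pseudocount of 1 FPKM. Dazl did not have this middle position, since its Dnmt3bCI/CI values of 0.124 to 0.167 FPKM overlapped with those of Dnmt3b+/+. Whether the effects on Dazl and Ddx4 differ in Dnmt3bCI/CI was not tested.

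Taf7l, an X-linked germ cell relative of a general transcription factor subunit, went from 2 to 3 reads per embryo in Dnmt3b+/+ (0.0227 to 0.0299 FPKM) to 7.64, 4.87 and 6.49 FPKM in Dnmt3b-/- and 3.98, 3.58 and 3.88 FPKM in Dnmt3bCI/CI. Its log2 differences were 5.65 ± 0.15 and 4.95 ± 0.15, given without a test for the same reason, and they depend on the pseudocount because the control level is at the limit of detection. The Dnmt3b+/+ embryo high in Xist had 3 of these reads and the other two had 3 and 2. Meioc, a protein required for meiotic prophase, had 0.102, 0.161 and 0.105 FPKM in Dnmt3b+/+, 0.44, 0.448 and 0.481 FPKM in Dnmt3b-/- and 0.454, 0.4 and 0.377 FPKM in Dnmt3bCI/CI. It rose by 1.33 ± 0.14 (adjusted p = 6.8e-04) and 1.20 ± 0.14 (adjusted p = 0.0114), and the 2 mutant groups overlapped. With a pseudocount of 1 FPKM the call in Dnmt3b-/- was lost, and with a filter of 1 FPKM Meioc was not tested. The Meioc call in Dnmt3bCI/CI was lost without Dnmt3b+/+ embryo 1 or 3, without any 1 of the Dnmt3bCI/CI embryos, without both embryos high in Xist, with only the 2 genotypes in the model, with a replicate block and with a pseudocount of 1 FPKM.

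The promoter windows of Ddx4 and Taf7l differed in the features counted above. Ddx4 held 38 CG, above 95.0% of windows, and 1 CACGTG at position -29 from the start, and Taf7l held 17 CG and 1 CACGTG at position -49. The Ddx4 window also held the E2F letters GCGGGAA or their complement TTCCCGC once, which 4.6% of windows hold and no matched member did.

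**Figure D3:**
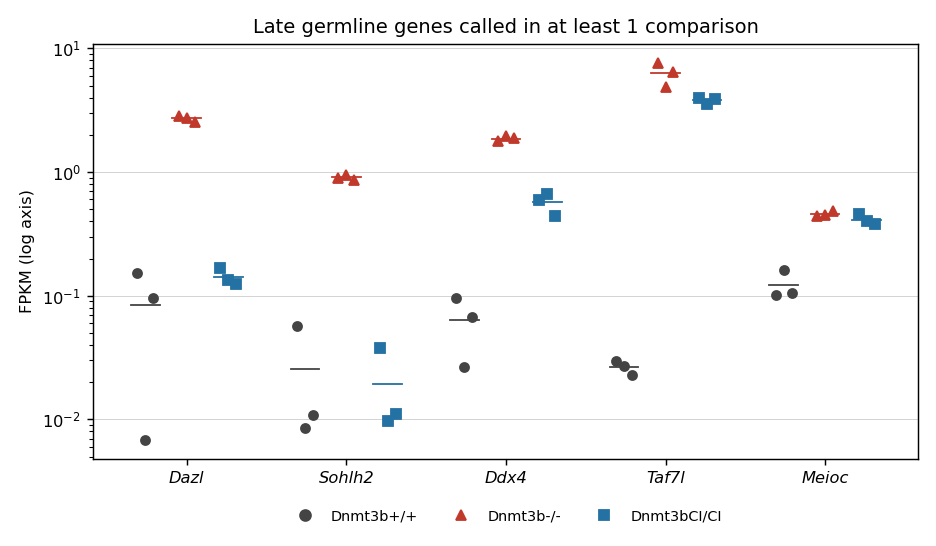
FPKM (log axis) of Dazl, Sohlh2, Ddx4, Taf7l and Meioc in each of the 9 embryos, with Dnmt3b+/+ as grey circles, Dnmt3b-/- as red triangles, Dnmt3bCI/CI as blue squares and bars as group means. The 5 are the late genes past the thresholds in Dnmt3b-/- against Dnmt3b+/+, so all are high in Dnmt3b-/- by selection. The Dnmt3bCI/CI embryos are near Dnmt3b+/+ for Dazl and Sohlh2, between the groups for Ddx4 at 0.44 to 0.667 FPKM, and close to Dnmt3b-/- for Meioc.

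The other late regulators spanned a wide range. Tbpl1, a relative of the TATA-binding protein, was at 7.69 to 9.33 FPKM over the 9 embryos and Rfx2, a factor of spermatid and ciliated cell genes, at 2.14 to 2.81 FPKM, and neither was called. At the other end, 7 of the 24 genes in the table were not above the filter. Figla and Nobox, transcription factors of the primordial follicle, had 0 reads in all 9 and in 8 of 9 embryos, and Stra8, the retinoic acid target that opens meiosis, had 0 to 2 reads. Boll, the closest relative of Dazl, had 0 to 2 reads. Lhx8, an oocyte factor that is also strongly expressed in forebrain and jaw, was at 2.64 to 4.26 FPKM in Dnmt3b+/+, 3.21 to 5.94 FPKM in Dnmt3b-/- and 1.45 to 2.68 FPKM in Dnmt3bCI/CI, and was called between the last 2 groups (1.18 ± 0.30, adjusted p = 0.0217). That call was lost without Dnmt3b-/- embryo 2 or 3, without Dnmt3bCI/CI embryo 1 or 2, with a replicate block and with a pseudocount of 1 FPKM. Sohlh1 thus had as few reads as Figla, Nobox and Stra8, in the same embryos in which Dazl and Sohlh2 were high.

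A list of 25 other primordial germ cell genes, all in the table and 23 above the filter, had 2 genes that rose and 0 that fell in Dnmt3b-/- against Dnmt3b+/+, beside 1.07% and 3.38% of all genes, and a median log2 difference of -0.20 beside -0.07 over all genes. By adjusted p alone 3 were higher and 3 lower, the latter being Klf4 (-0.75 ± 0.18, adjusted p = 0.0178), Alpl (-0.76 ± 0.15, adjusted p = 0.00911) and Smad5 (-0.22 ± 0.06, adjusted p = 0.0248). The 2 were Lin28a, which blocks let-7 maturation and is also expressed in many embryonic tissues, and the zinc finger factor Sall4, also widely expressed. Lin28a had 0.331, 0.106 and 0.128 FPKM in Dnmt3b+/+, 0.791, 1.67 and 1.31 FPKM in Dnmt3b-/- and 0.195, 0.231 and 0.176 FPKM in Dnmt3bCI/CI. It rose by 2.26 ± 0.32 over Dnmt3b+/+ (adjusted p = 0.00275) and by 2.12 ± 0.32 over Dnmt3bCI/CI (adjusted p = 0.00292). Sall4 had 0.769, 0.279 and 0.548 FPKM, 1.14, 1.69 and 1.43 FPKM, and 0.483, 0.522 and 0.474 FPKM in the same order of groups. It rose by 1.33 ± 0.28 over Dnmt3b+/+ (adjusted p = 0.0111) and by 1.34 ± 0.28 over Dnmt3bCI/CI (adjusted p = 0.0094). With a pseudocount of 1 FPKM these calls of Lin28a and Sall4 were lost, and with a filter of 1 FPKM Lin28a was not tested. In Dnmt3bCI/CI against Dnmt3b+/+ 0 of the 23 genes were called by limma, and 1 had an unadjusted p under 0.05.

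Other genes of germ cells and pluripotent cells, from this list and from the relatives of the members, were not called or not tested. Zfp42, a pluripotency marker also known as Rex1, had means of 0.0754, 0.165 and 0.170 FPKM in Dnmt3b+/+, Dnmt3b-/- and Dnmt3bCI/CI (log2 difference for Dnmt3b-/- 0.62 ± 0.31, adjusted p = 0.167). Pou5f1, the pluripotency factor that germ cells keep at this stage, had 0.159, 0.00804 and 0.215 FPKM in Dnmt3b+/+ (16, 0 and 19 reads), 0.112, 0.0209 and 0.00987 FPKM in Dnmt3b-/- (10, 2 and 0 reads) and 0.119, 0.123 and 0.081 FPKM in Dnmt3bCI/CI (12, 12 and 7 reads). Its log2 difference in Dnmt3b-/- was -0.55 ± 0.40 (adjusted p = 0.339). Nanog had 0 to 8 reads per embryo and was not tested. Sox2, at 15.2 to 43.1 FPKM, a factor of neural progenitors as well, was not called in any comparison, though Dnmt3b-/- exceeded Dnmt3bCI/CI by 0.95 ± 0.19 (adjusted p = 0.00823), just under 2-fold, and was called with median-of-ratios scaling and without Dnmt3b-/- embryo 2, Dnmt3bCI/CI embryo 3 or both embryos high in Xist. Dppa5a, a transcript of germ cells and pluripotent cells, had 7, 0 and 16 reads in Dnmt3b+/+, 6, 0 and 3 in Dnmt3b-/- and 7, 11 and 6 in Dnmt3bCI/CI. Dppa4 and Dppa2, a pair of nuclear proteins of pluripotent cells, had 0 to 13 and 0 to 5 reads (Dppa4 log2 difference 0.52 ± 0.30 in Dnmt3b-/-, adjusted p = 0.229), and Dppa2 was not tested.

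The embryos with no Dppa3 reads were the same ones for the other germ cell transcripts in part. Dnmt3b+/+ embryo 2 had 0 reads of Dppa3, Pou5f1 and Dppa5a, 1 of Dazl, 7 of Nr5a1 (a factor of gonadal somatic cells and adrenal) and 14 of Gata1 against 121 to 373 in the other 8. Dnmt3b-/- embryos 2 and 3 had 0 Dppa3 reads each, 2 and 0 of Pou5f1, and 343 and 305 of Dazl. These transcripts were picked with their values in view, and others did not share their pattern, since Dnmt3b+/+ embryo 2 was not the lowest of its group for Nanos3 (0.956 FPKM), Dnd1 (0.674 FPKM) or Nanog (0.0448 FPKM). Nr5a1 was at 0.349, 0.0331 and 0.355 FPKM in Dnmt3b+/+, 0.0769, 0.0832 and 0.0698 FPKM in Dnmt3b-/- and 0.226, 0.191 and 0.221 FPKM in Dnmt3bCI/CI. The 8 gonadal soma markers summed to 39.1 to 44.9, 31.1 to 35.4 and 36.9 to 39.4 FPKM in the 3 groups. Most of that sum was Sox9, which is widely expressed outside the gonad (18.6 to 28.9 FPKM over the 9 embryos). Of these markers, 0 of 8 were called by limma in Dnmt3b-/- against Dnmt3b+/+ (1 at an unadjusted p under 0.05), and every marker was above 3 reads in at least 1 embryo. Lhx9 was called higher in Dnmt3b-/- than in Dnmt3bCI/CI (1.00 ± 0.21, adjusted p = 0.0107), beside 1.10% of all genes. Its means were 2.17, 1.88 and 0.888 FPKM in Dnmt3b+/+, Dnmt3b-/- and Dnmt3bCI/CI, so Dnmt3bCI/CI was the low group. From Dnmt3b+/+ it differed by -0.15 ± 0.21 in Dnmt3b-/- and by -1.15 ± 0.21 in Dnmt3bCI/CI (limma adjusted p = 0.223, not called). Germ cell number was not measured, and its part in these values was not tested. Without Dnmt3b+/+ embryo 2 the list of other primordial germ cell genes gave 4 calls in place of 2, with Pou5f1 and Utf1 lower in Dnmt3b-/- beside Lin28a and Sall4 higher.

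**Figure D4:**
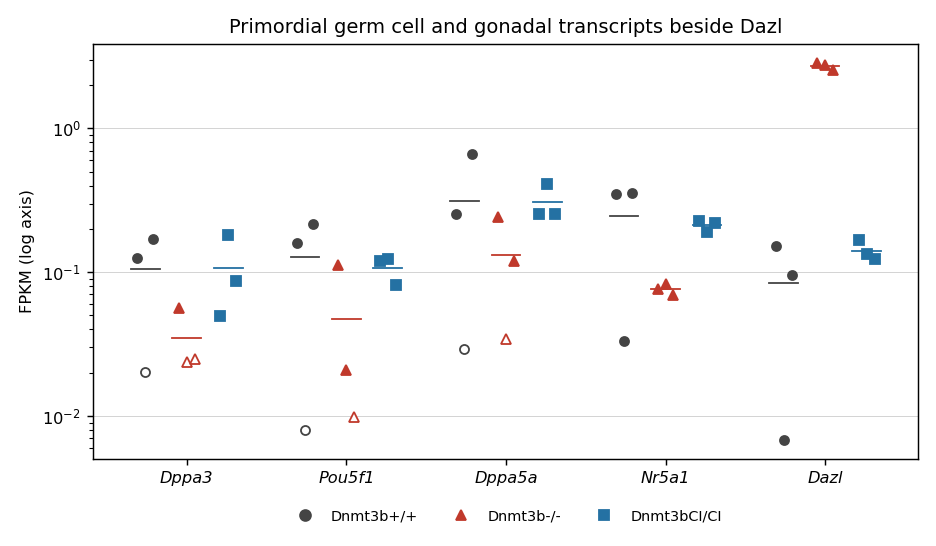
FPKM (log axis) of Dppa3, Pou5f1, Dppa5a, Nr5a1 and Dazl in each of the 9 embryos, with Dnmt3b+/+ as grey circles, Dnmt3b-/- as red triangles, Dnmt3bCI/CI as blue squares, bars as group means and open symbols as embryos with 0 reads, drawn at the table's value for no reads. Dnmt3b+/+ embryo 2 is lowest of its group for all 5 genes, and Dnmt3b-/- embryos 2 and 3 are at 0.12 FPKM or less for the first 4 genes but at 2.74 and 2.56 FPKM for Dazl.

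Surface ectoderm, where Tfap2c is also active, was followed by 9 markers, whose sum was 58.2 to 69.4 FPKM in Dnmt3b+/+, 46.3 to 55.5 FPKM in Dnmt3b-/- and 56.6 to 74.7 FPKM in Dnmt3bCI/CI. One of 9, Krt15, fell in Dnmt3b-/- against Dnmt3b+/+, with a log2 difference of -1.05 ± 0.14 (adjusted p = 0.00238), beside 3.38% of all genes called lower, and 0 of 9 were called by limma in Dnmt3bCI/CI against Dnmt3b+/+ (1 at an unadjusted p under 0.05). The lower sum in Dnmt3b-/- came from Krt5, Krt14 and Krt15, whose means were 0.545, 0.499 and 0.477 times those of Dnmt3b+/+, whereas Krt8, Krt18, Epcam, Tfap2a and Cdh1 were at 1.37, 1.52, 1.29, 1.12 and 1.09 times and Trp63 at 0.861 times. The median log2 difference of the 9 markers was 0.13 beside -0.07 over all genes. The part of surface ectoderm in the Tfap2c values was not tested.

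Genes were also ranked by their Pearson r with each member over the 9 embryos, as a description. Embryos of 1 genotype share that genotype, so r can come from the difference between groups as well as from single embryos. These parts of r were not separated. The genes most like Dazl were the translation factor gene Eif4g1 (r = 0.995), the mitotic kinesin gene Kifc1 (0.993), Stk31, a kinase gene expressed in testis (0.991), the hormone precursor gene Pomc (0.988) and the lincRNA 5430416N02Rik (0.988). Only Stk31 had a profile near zero outside Dnmt3b-/-, with mean levels of 0.0134, 0.473 and 0.0409 FPKM in Dnmt3b+/+, Dnmt3b-/- and Dnmt3bCI/CI. Eif4g1 by contrast moved between 57.8, 74.4 and 59.4 FPKM. Among the genes most like Sohlh2 were Tinf2, a telomere protein gene (0.994), Parp1 (0.993), the testis-expressed ribosomal protein gene Rpl10l (0.992) and Sesn2 (0.991). Of these Rpl10l had the same on and off shape, with means of 0.0208, 1.22 and 0.0209 FPKM.

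The primordial germ cell genes had other neighbours. Wfdc21 (0.950), Ltf (0.919) and A230060F14Rik (0.914) were closest to Dppa3, and Ltf was at 0.116 FPKM in Dnmt3b+/+ embryo 2 against 0.584 and 0.547 in the other two of that group. Ttll12 (0.972), Tarbp2 (0.965) and Gm15648 (0.961) were closest to Dnd1, and Zfp759 (0.975), Gm37074 (0.966) and Gm45867 (0.966) to Nanos3. For Prdm1 they were Ms4a6b (0.970), Lrrc25 (0.967) and BE692007 (0.954), of which the first 2 are expressed in myeloid cells. Tfap2c was closest to Six3os1 (0.972), which was at 0.0253 FPKM in Dnmt3bCI/CI embryo 2 against 0.654 and 1.03 in the other two, and then to Gm38188 (0.969) and CT025642.3 (0.967). Kit was closest to the protocadherin gene Pcdhb10 (0.992), Abca8a (0.983) and Inpp1 (0.983). No gene named here as a neighbour of 1 member was a neighbour of another.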

How the data were processed

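Total RNA of 9 whole embryos was sequenced with paired-end reads. The authors aligned trimmed reads with STAR to mm10, kept high mapping quality, quantified genes in SeqMonk and deposited 1 table of FPKM on the linear scale, with 34245 genes (1 without a name, left out). The annotation release and strand setting are not given in the sources used here. A gene without reads holds a value worth 0.9 reads, so reads could be worked back from the deposited FPKM as whole multiples within 0.02 reads, and implied lengths of 95.5% of 14462 genes lay within 1% of GENCODE M21. Reads describe depth and were not tested. Replicates are 3 embryos each. The p-values set a difference between groups against the variance between embryos within genotypes, which was pooled over the 3 genotypes and moderated over genes.

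The 19397 genes that reached 0.1 FPKM in 3 or more of the 9 embryos were fitted with limma (version 3.58.1, R 4.3.3) as log2(FPKM + 0.1), with 3 genotypes and a variance trend. Calls needed a 2-fold change and p under 0.05 after Benjamini-Hochberg adjustment over all of them. Because of the pseudocount, fold changes of low genes are understated. The fit was tested on simulated data. Members and lists were chosen with earlier results of these data known. No p is therefore given for a member, the members past the thresholds are a description only, and no list was tested as a set. Named beside the 10 members were list genes called in any comparison, listed relatives and well-known germ cell genes, and the 5 or 3 genes most like a member, of which 1 is not reported here; marker genes, Utf1, Zfp42, Klf4, Alpl, Smad5, Tbpl1, Rfx2 and the genes that marked single embryos were named after their values were seen. Gene coordinates are GENCODE M21 (GRCm38), and promoter windows are RefSeq; 6 of 10 members matched. Meiosin appears in the table as Gm4969, and Gcna was not matched. Alternatives were other pseudocounts, filters, scalings and variance models, fits on 2 genotypes, a replicate block and leaving out each embryo; leaving out the 2 embryos high in Xist was added after seeing the data. Python 3.11.15 with pandas 2.3.3 and numpy 2.4.6 handled the tables.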

Additional observations from a re-analysis of the deposited data

How the results depend on the processing

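As a description, the log2 difference of Dnmt3b-/- from Dnmt3b+/+ ran over the alternatives from 1.78 to 5.37 for Dazl and from 0.90 to 4.96 for Sohlh2, both ends being set by the pseudocount (1 and 0.01 FPKM). With a filter of 1 FPKM Sohlh2 was not tested. Against Dnmt3bCI/CI the ranges were 1.70 to 4.18 and 0.90 to 5.08. Tfap2c in Dnmt3b-/- against Dnmt3bCI/CI ran from 0.85 to 1.68 and was past the thresholds in 7 of 19 alternatives. Of the members' differences, none that was past the thresholds changed sign; marker genes were not followed across the alternatives. Among differences that were not called, Sohlh2, Dppa3 and Nanos3 in Dnmt3bCI/CI against Dnmt3b+/+ ran across 0, from -0.16 to 0.17, -0.31 to 0.27 and -0.20 to 0.01. Reads limit Sohlh1, Prdm14 and Dppa3, which had at most 7 reads per library.

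Over all genes, Dnmt3b-/- against Dnmt3b+/+ gave 863 calls, 193 with a pseudocount of 1 FPKM and 484 with a filter of 1 FPKM. Leaving out 1 embryo gave 614 to 1427, the highest without Dnmt3b-/- embryo 1. The other primordial germ cell genes gave 0 and 1 calls with that pseudocount and filter in place of 2, and 2 to 4 with an embryo left out. Dnmt3bCI/CI against Dnmt3b+/+ gave 25 calls, 8 with a pseudocount of 1 FPKM, 15 without the 2 embryos high in Xist and 18 to 26 without 1 embryo, and the other late regulators 1 call with that pseudocount (Taf7l) in place of 3 and 2 to 3 without 1 embryo. Dnmt3b-/- against Dnmt3bCI/CI gave 1051 calls, 242 with a pseudocount of 1 FPKM, 597 with a filter of 1 FPKM and 751 to 1604 without 1 embryo, again highest without Dnmt3b-/- embryo 1. There the other late regulators gave 0 calls with a pseudocount of 1 FPKM in place of 2 and 1 to 2 without 1 embryo, Lhx8 being lost without Dnmt3b-/- embryo 2 or 3 or Dnmt3bCI/CI embryo 1 or 2, and the other primordial germ cell genes 0 and 1 calls with the pseudocount and the filter in place of 2, and 2 to 3 without 1 embryo. The cause was not tested. Quantile normalization raised the share of higher calls from 24.1% to 40.4% in Dnmt3b-/- against Dnmt3b+/+ and from 20.3% to 37.7% against Dnmt3bCI/CI.

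Embryos of different genotypes with the same number did not deviate together, with a mean correlation of -0.0866 (-0.34 to 0.215) against 0.0478 for other pairs, so the numbers do not pair them. With the number as a replicate block, calls over all genes were 738, 17 and 926 in the 3 comparisons, and the other late regulators gave 1 call, Ddx4, in Dnmt3b-/- against Dnmt3bCI/CI and 2, without Meioc, in Dnmt3bCI/CI against Dnmt3b+/+.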
